A study of Homo sapiens with 4 samples.

Results

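Integrins and laminins were examined in 4 RNA sequencing libraries of metastatic breast cancer cells. The members were the rows of the gene table whose symbol names an integrin alpha subunit, an integrin beta subunit from ITGB1 to ITGB8, or a laminin alpha, beta or gamma chain. The genes described numbered 27 of 20329: 11 integrin alpha subunits, 7 integrin beta subunits and 9 laminin chains. Of these, 21 had a mean of at least 1 FPKM over the 4 libraries (fragments mapped to a gene, scaled to gene length and to library size) and entered the counts below: 8 alpha subunits, 5 beta subunits and 8 laminin chains.

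The cells were BM1 and LM2, bone and lung metastasis derivatives of MDA-MB-231, a triple-negative human breast cancer line. Each line was studied as a control, carrying a non-specific shRNA, and as a knockdown, carrying an shRNA against the RNA-binding splicing factor hnRNPM. All 4 cultures carried a stably expressed, lentivirally delivered shRNA. Polyadenylated RNA gave 1 library per culture, so a difference within a line or within a treatment compares 2 libraries and has no replicate check. The sources used here do not say how many shRNA sequences or clones lie behind a culture. HNRNPM stood at 171 FPKM in the BM1 control and 28.4 in the BM1 knockdown, and at 132 and 20.3 in LM2, which left 16.6% and 15.4% of the control level.

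Integrins are receptors that span the cell membrane as a pair of 1 alpha and 1 beta subunit and join the matrix outside to the actin or keratin cytoskeleton inside. The pairing sets the ligand: ITGA3, ITGA6 and ITGA7 make laminin receptors, ITGA1, ITGA2 and ITGA10 make collagen receptors, and ITGA5 and ITGAV make receptors for the Arg-Gly-Asp motif of fibronectin, vitronectin and the latent form of TGF-beta. Laminins are trimers of an alpha, a beta and a gamma chain that build the basement membrane under epithelia. LAMA3 and LAMB3 belong to a laminin that anchors epithelial cells through the ITGA6 and ITGB4 pair.

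FPKM values are scaled to gene length, so the levels of different members can be set side by side. ITGA3, the alpha subunit of the main laminin receptor of epithelial cells, stood at 231 FPKM in BM1 control cells and 218 after knockdown, against 284 and 341 in LM2. It made up 64.8% to 71.5% of the summed FPKM of the 11 alpha subunits in every library. ITGB1, the common partner of most alpha subunits, made up 59.3% of the summed beta subunit FPKM in BM1 control cells and 85.9% after knockdown, against 65.3% and 74.7% in LM2. Among laminin alpha chains, LAMA5 held 79.6% to 88.3%. LAMB2 and LAMB3 together led the beta chains in all 4 libraries.

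**Figure D1:**
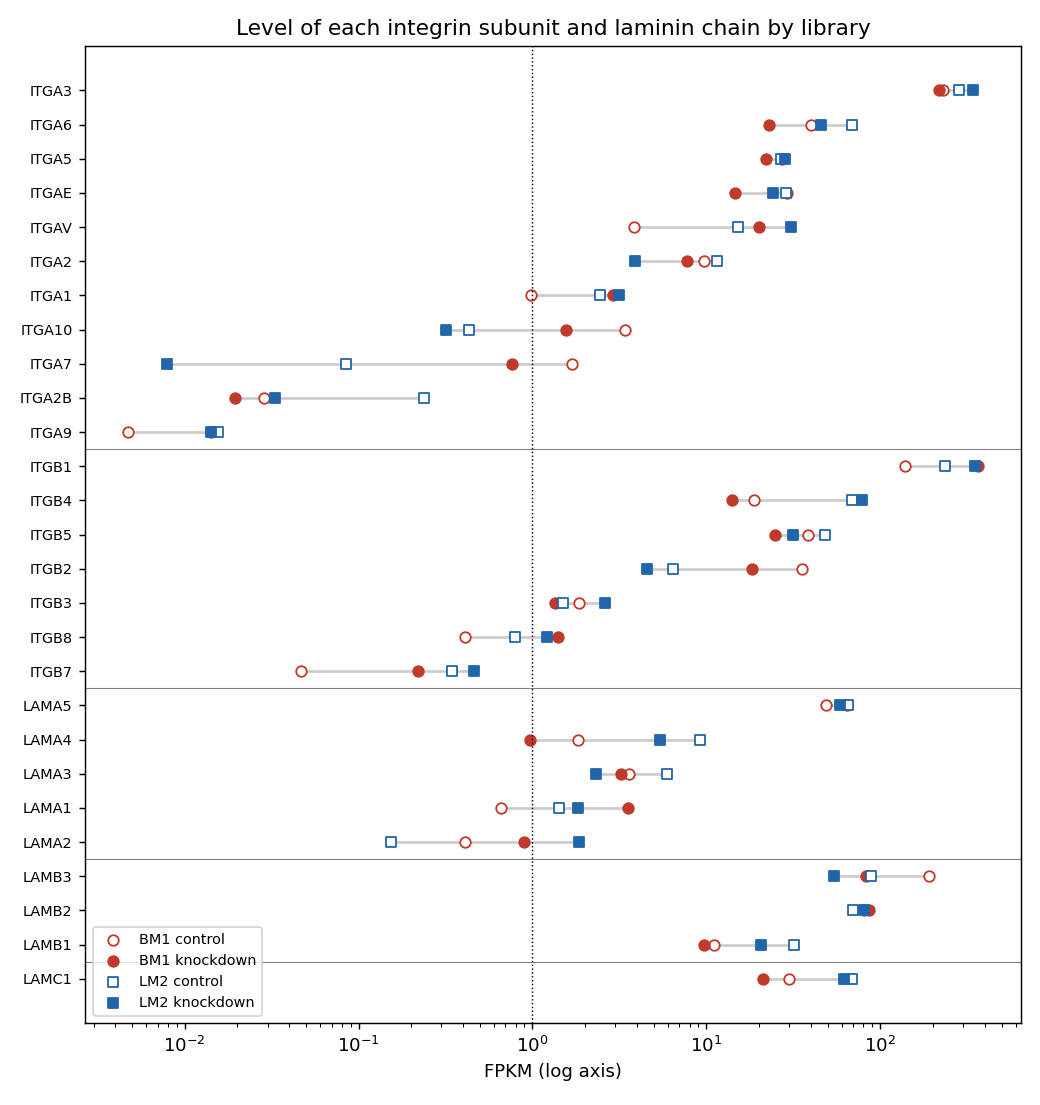
FPKM of each of the 27 members on a log axis, with circles for BM1, squares for LM2, open symbols for controls and filled symbols for knockdowns. Lines join the lowest and highest library of a gene, the dotted line marks 1 FPKM, and ITGA3 and ITGB1 lie farthest to the right.

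Over the members described, the summed FPKM of the beta subunits was 233 in the BM1 control and 424 in the BM1 knockdown. It was 362 and 470.2 in the corresponding LM2 libraries. ITGB1, whose level is uncertain, held most of this sum, at 138 and 365 FPKM in BM1 and 236 and 351 in LM2. The summed alpha subunits were at 347 and 311 in BM1 and at 438 and 477 in LM2. Thus the BM1 control held less summed beta than alpha subunit RNA and the BM1 knockdown held more, while the LM2 knockdown sums lay close together. Laminin beta chains summed to 284 and 179 FPKM in BM1 and to 189.5 and 156 in LM2, lower in the knockdown library of each line. LAMB3 and LAMB1 were lower there, while LAMB2 was slightly higher, at 80.8 and 86.5 FPKM in BM1 and 69.9 and 80.8 in LM2. The laminin alpha sum was not lower in both knockdowns, at 55.4 and 72.8 FPKM in BM1 and 81.8 and 70.1 in LM2.

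**Figure D2:**
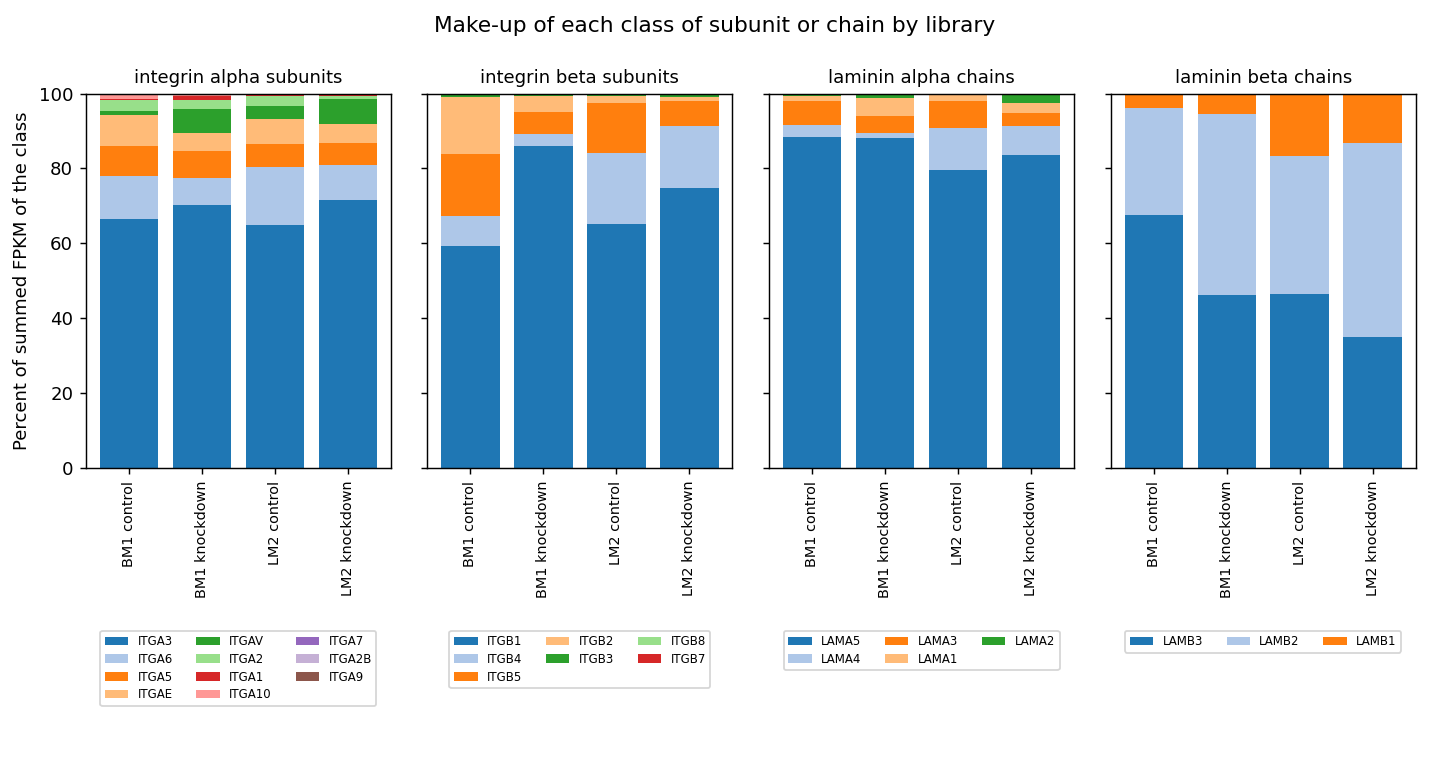
Stacked bars of each member's percent of the summed FPKM of its class, for the 4 libraries, from 0 to 100%, in classes with more than 1 member. ITGB1 takes 59.3% of the beta subunit sum in the BM1 control against 85.9% in the BM1 knockdown, and 65.3% against 74.7% in LM2.

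The knockdown was then compared with the control in each line, on the log2(FPKM + 1) scale, which understates the change of low genes. In BM1, 3 of 21 members were at least 2-fold higher in the knockdown (ITGAV, ITGB1 and LAMA1) and 1 was at least 2-fold lower (LAMB3). Of all 13928 genes tested, 10.1% were higher and 6.2% lower by that rule. In LM2, 0 members were at least 2-fold higher and 2 were lower (ITGA2 and LAMA3), against 3.83% and 4.24% of all genes. By that rule none of these 6 members was past 2-fold in both lines. ITGAV missed it in LM2 at 0.98, though its FPKM there was 2.03 times the control. With a pseudocount of 0.1 or with size factors ITGAV reached 1.02 in LM2 and was then past 2-fold in both. The median difference of the 21 members was -0.29 in BM1 and -0.15 in LM2, beside 0.005 and -0.038 for all genes tested.

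A limma fit over all 4 libraries, with terms for line and treatment, called 1 of 21 members higher in the knockdown, ITGAV, and 0 lower at an adjusted p below 0.05, while 9 had an unadjusted p below 0.05, as had 24.9% of all genes. Among all genes 2.71% were called higher and 2.76% lower, so the members' counts at the adjusted threshold are close to the background. The 9 members with an unadjusted p below 0.05 were a larger share than among all genes, a difference that was not tested. With 1 residual degree of freedom this fit can hardly call a gene whose change has opposite signs in the lines. The shared direction of its calls is therefore no sign of agreement. Changes of unlike size could be called, as for ITGAV at 2.12 in BM1 and 0.98 in LM2 on the log2(FPKM + 1) scale. The ITGAV call was lost with a pseudocount of 0.1, without the low-value filter, without pairing by line, and on leaving out any library. With that pseudocount limma called 27 of all genes, against 762 as reported, and without the filter or without pairing it called 0. On leaving out any library the calls over all genes were lost as well. Losses under these settings are not particular to ITGAV. Leaving out a library also leaves out the term for line. The ITGAV estimate was then 0.68 with the BM1 control left out and 2.42 with that of LM2 left out. Over all alternatives the adjusted p ran from 0.0232 to 0.783 for ITGAV. Of the 21 members, 5 were higher and 11 lower in the knockdown library of both lines. ITGA3, ITGA5, ITGB3, ITGB4 and LAMA5 had opposite signs, and of all genes 30.9% did. The 5 members with opposite signs differed by less than 0.58 on the log2 scale in each line.

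**Figure D3:**
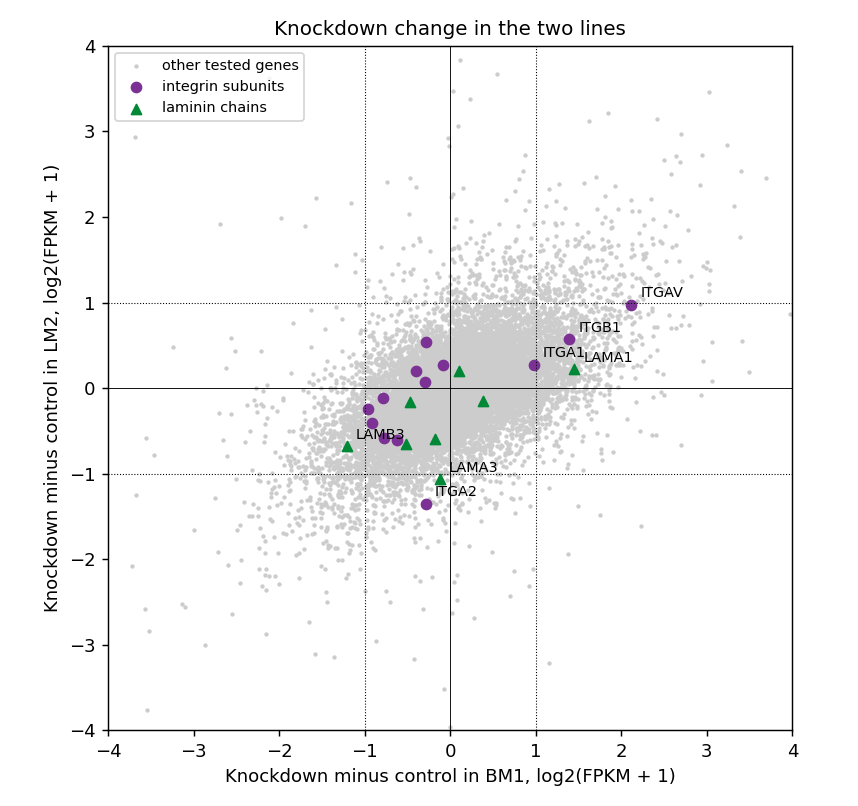
Knockdown minus control on the log2(FPKM + 1) scale in BM1 (horizontal) and LM2 (vertical), with integrin subunits as circles, laminin chains as triangles, other tested genes as grey points and dotted lines at 2-fold. ITGAV and LAMB3 lie at opposite ends of the members along the BM1 axis, and 9 genes fall outside the axes.

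Among the Arg-Gly-Asp receptors, the alpha subunit ITGAV rose. ITGAV (ENSG00000138448.11, chromosome 2, 187454792 to 187545628, plus strand, positions as the table gives them, with GRCh37 the build in the submitters' processing notes) stood at 3.85 FPKM in BM1 control cells and 20.0 after knockdown, against 15.2 and 30.9 in LM2. Both knockdown libraries were above both controls. The knockdown value was 5.20 times the control in BM1 and 2.03 times in LM2, and limma gave 1.55 ± 0.32 (log2, SE, adjusted p 0.0313). A gene listed on the opposite strand, AC017101.10, shares 39563 bases with ITGAV and stood at 1.15, 4.23, 2.43 and 6.42 FPKM in the same order of libraries. Per the labels the kit keeps strand, but no source used here says that the counting did, so the part of this overlap in the ITGAV values was not tested.

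ITGB1 (ENSG00000150093.18, chromosome 10, 33189247 to 33294720, minus strand) was at 138 FPKM in BM1 control cells and 365 after knockdown, against 236 and 351 in LM2. Again both knockdown libraries were above both controls, at 2.64 times the control in BM1 and 1.49 times in LM2, and the 2 knockdown libraries lay close together. The limma estimate was 0.98 ± 0.29 (log2, SE) with an adjusted p of 0.0836, which missed the threshold. An entry named ITGB1P1, a pseudogene of ITGB1 by its symbol, spans 609 bases of chromosome 19 and was listed at 67.8, 188, 144 and 177 FPKM in the same order. No source used here says how fragments were divided between ITGB1 and this entry, so the level of ITGB1 is uncertain.

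None of the other tested beta partners of ITGAV was called by limma in the knockdown. ITGB5, which pairs with ITGAV to bind vitronectin, was at 38.6 and 24.7 FPKM in the BM1 control and knockdown and at 48.1 and 31.4 in LM2. Both knockdown libraries were below both controls, at 0.641 and 0.652 of the control level, and the adjusted p was 0.177 (limma). The ratio of ITGB5 to ITGAV FPKM was 10.0 in BM1 control cells and 1.23 after knockdown, against 3.16 and 1.02 in LM2. The ratio was lower in the knockdown library of each line and stayed above 1 in all 4. ITGB3, the other vitronectin-binding partner, stayed between 1.34 and 2.62 FPKM, highest in the LM2 knockdown. ITGB8, which presents latent TGF-beta, had a mean below 1 FPKM and was listed at 0.408 and 1.40 FPKM in BM1 and 0.797 and 1.21 in LM2. ITGA5, the classical fibronectin receptor subunit, was between 22.1 and 28.3 FPKM in all 4 libraries and its knockdown difference had opposite signs in the lines.

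None of the collagen receptor subunits was called by limma in the knockdown. ITGA2 was at 9.67 and 7.73 FPKM in the BM1 control and knockdown and at 11.5 and 3.90 in LM2. The LM2 knockdown was the lowest library, 0.339 of its control, while in BM1 the knockdown was 0.80 of the control, and the adjusted p over both lines was 0.149 (limma). ITGA1 was at 0.987 and 2.92 FPKM in BM1, with 2.44 and 3.16 in LM2, so the BM1 control alone was low. PELO lies inside ITGA1 on the same strand and was at 13.7 to 17.6 FPKM, with no such low library. ITGA10, a subunit best known from cartilage, was at 3.42 and 1.57 FPKM in BM1, with 0.429 and 0.319 in LM2.

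The tested laminin receptor subunits were not called by limma in the knockdown either. ITGA6 was at 39.9 and 22.9 FPKM in BM1, with 68.4 and 45.4 in LM2, with each knockdown at 0.573 and 0.664 of its control (adjusted p 0.145, limma). ITGB4, which pairs with ITGA6 alone and links to keratin through hemidesmosomes, was at 18.7 and 13.9 FPKM in BM1, with 68.5 and 78.8 in LM2. The ratio of ITGB4 to ITGA6 FPKM was 0.469 and 0.610 in BM1 and 1.0 and 1.73 in LM2, higher in the knockdown of each line. ITGA7, a muscle laminin receptor subunit, had a mean below 1 FPKM and was at 1.69 and 0.765 FPKM in BM1 and 0.0846 and 0.00794 in LM2.

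Subunits known from leukocytes were also present. ITGB2, the beta subunit of leukocyte integrins, was at 35.3 and 18.2 FPKM in BM1, with 6.39 and 4.58 in LM2. Each knockdown was below its control, and the adjusted p was 0.168 (limma). The alpha subunits ITGAL, ITGAM, ITGAX and ITGAD, the partners of ITGB2, were not analysed here. ITGB2-AS1, listed on the opposite strand over 8628 bases of ITGB2, was at 4.53, 2.97, 1.13 and 0.382 FPKM. ITGAE, which pairs with ITGB7 on lymphocytes of epithelia, was at 29.3 and 14.6 FPKM in BM1, with 28.8 and 24.2 in LM2, with the BM1 knockdown lowest. ITGB7 itself was at 0.0467 to 0.460 FPKM, and ITGA2B and ITGA9 did not exceed 0.239 and 0.0155. Of 8 leukocyte markers, CD68 and CD14 had a value here. CD68, a lysosomal protein of macrophages, fell from 23.5 to 4.46 FPKM (BM1) and from 9.50 to 2.04 (LM2) with an adjusted p of 0.00969 (limma). CD14 did not share that fall. It was at 1.62 and 1.47 FPKM in the BM1 control and knockdown and rose from 1.97 to 7.09 in LM2 (adjusted p 0.283, limma). The part of other cells in the ITGB2 and ITGAE values was not tested.

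The epithelial anchoring chains LAMA3 and LAMB3 were lower in the knockdown library of each line, and limma called neither. LAMB3, a beta chain, was at 192 and 82.5 FPKM in BM1, with 87.8 and 54.5 in LM2. The BM1 control stood apart as the highest library, each knockdown was below its control, and the adjusted p was 0.0758 (limma). LAMA3, an alpha chain and its partner, was at 3.60 and 3.23 FPKM in BM1, with 5.95 and 2.33 in LM2. Its LM2 knockdown was 0.392 of the control, while its BM1 libraries differed by less than 2-fold (adjusted p 0.259, limma).

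**Figure D4:**
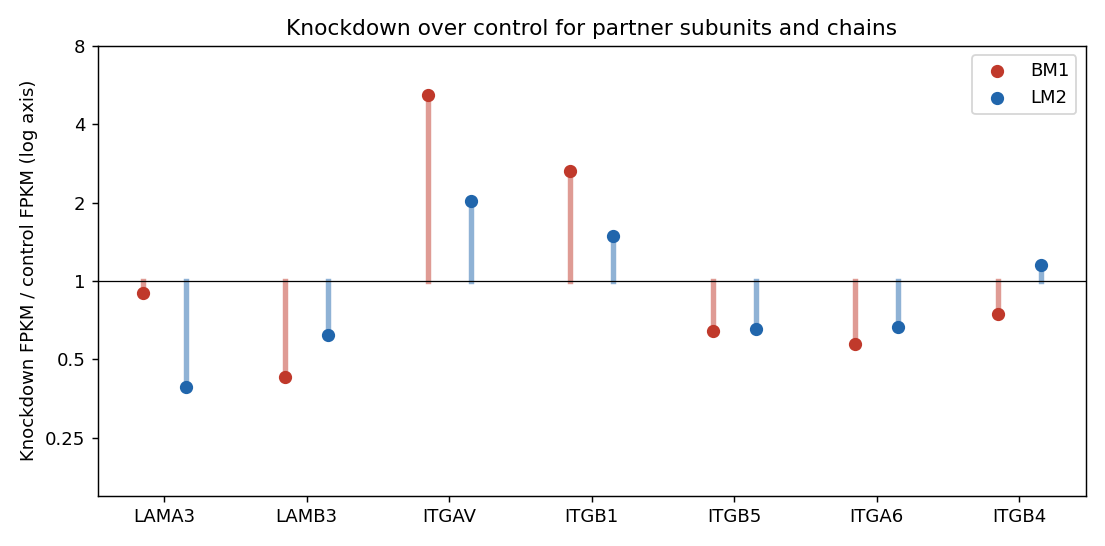
Ratio of knockdown to control FPKM on a log axis for chains and subunits that work as partners, in BM1 and LM2, with 1 library behind each value of the ratio. LAMA3, LAMB3, ITGB5 and ITGA6 lie below 1 in both lines and ITGAV and ITGB1 above 1 in both, while ITGB4 lies on opposite sides.

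LAMB3 and LAMA3 were unequal in level. On the FPKM scale LAMB3 was at 53.3 and 25.5 times LAMA3 in BM1 and at 14.8 and 23.3 times in LM2.

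The upstream DNA of LAMA3, LAMB3, ITGAV and ITGB1 is shown because AP-1, a transcription factor that binds TGANTCA, is known to act on LAMA3. RefSeq start sites (GRCh38.p14) were matched for 20 of the 27 members, with 27 starts in all. The 250 bases before each start were searched for TGANTCA, which reads the same on both strands. It was found at the most upstream matched start of 1 of the 20 members, LAMA3. That share is close to the 6.57% of 35116 promoters of the same length. Only matched starts were searched, so the LAMA3 start shown need not be the first start of that gene. TGANTCA was also found at start 3 of LAMB3, while starts 1 and 2 of LAMB3 held none. The last 130 bases before the LAMA3 start and start 3 of LAMB3 follow, with matches in capitals. The LAMB3 start was picked for its match, so the windows do not compare members that were higher and lower in the knockdown. Any link between matches and the knockdown differences was not tested. Beside the LAMA3 and LAMB3 windows are those of the first ITGAV and ITGB1 starts, which hold no match in that window.
LAMA3, chr18:23872890-23873019, plus strand: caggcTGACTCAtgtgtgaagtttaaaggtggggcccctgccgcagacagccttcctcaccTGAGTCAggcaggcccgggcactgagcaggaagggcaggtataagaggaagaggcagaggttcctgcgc
LAMB3, chr1:209651375-209651504, minus strand: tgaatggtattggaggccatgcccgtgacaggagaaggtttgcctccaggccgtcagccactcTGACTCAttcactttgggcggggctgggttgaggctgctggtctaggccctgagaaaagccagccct
ITGAV, chr2:186589926-186590055, plus strand: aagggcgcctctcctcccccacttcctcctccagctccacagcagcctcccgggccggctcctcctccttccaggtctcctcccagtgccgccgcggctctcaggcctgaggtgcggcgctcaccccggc
ITGB1, chr10:32958231-32958360, minus strand: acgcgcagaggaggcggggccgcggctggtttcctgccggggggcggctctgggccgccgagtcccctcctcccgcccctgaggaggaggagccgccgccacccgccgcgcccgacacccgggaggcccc

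The LAMA3 window holds 2 matches and the LAMB3 window 1. The 250 bases before the first ITGAV and ITGB1 starts have a GC content of 70.8% and 78.4%, and those before the LAMA3 start 60.4%, beside a median of 58% over all promoters. These are matches of letters only: binding was not measured in these libraries.

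None of the other tested laminin chains was called by limma in the knockdown. LAMA4, of endothelial and muscle basement membranes, was at 1.83 and 0.972 FPKM in BM1, with 9.14 and 5.43 in LM2, with each knockdown at 0.533 and 0.594 of its control. LAMB1 was at 11 and 9.66 FPKM in BM1, with 31.7 and 20.6 in LM2, and LAMC1 at 29.8 and 21.2 and at 69.0 and 61.7. LAMB2 was between 69.9 and 86.5 FPKM and LAMA5 between 48.9 and 65.1 FPKM, the steadiest laminin chains. LAMA1, the embryonic alpha chain, was at 0.658 and 3.53 FPKM in BM1, with 1.43 and 1.82 in LM2, so the BM1 knockdown stood above the other 3 libraries (adjusted p 0.161, limma). LAMA2, the muscle alpha chain, had a mean below 1 FPKM and was not in the fit, at 0.407 and 0.899 in BM1 and 0.155 and 1.84 in LM2.

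The lines were compared next, LM2 minus BM1 in each treatment. Between controls, 5 of 21 members were at least 2-fold higher in LM2 (ITGAV, ITGB4, LAMA4, LAMB1 and LAMC1) and 3 were lower (ITGA10, ITGB2 and LAMB3), beside 6.98% and 5.26% of all genes. Between knockdowns, 4 were higher in LM2 (ITGB4, LAMA4, LAMB1 and LAMC1) and 1 was lower (ITGB2), beside 4.41% and 4.63% of all genes. In the limma fit 4 members were called higher in LM2, ITGB4, LAMA4, LAMC1 and LAMB1, and 2 lower, ITGB2 and ITGA10. Of all genes 2.31% were called higher and 2.04% lower, 606 in all. Without the low-value filter 0 of all genes were called, and without the term for treatment 11. On leaving out any library nearly all calls over all genes were lost too. The median line difference in the limma fit as reported was 0.32 for the 21 members and -0.009 for all genes. All 6 calls were lost without the low-value filter, without the term for treatment and on leaving out any library, and those of LAMC1 and LAMB1 also with a pseudocount of 0.1 (adjusted p 0.102 and 0.112). Over its alternatives the adjusted p of LAMC1 ran from 0.0126 to 0.966, and LAMB1 also missed the threshold with a pseudocount of 0.5 (0.0544).

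**Figure D5:**
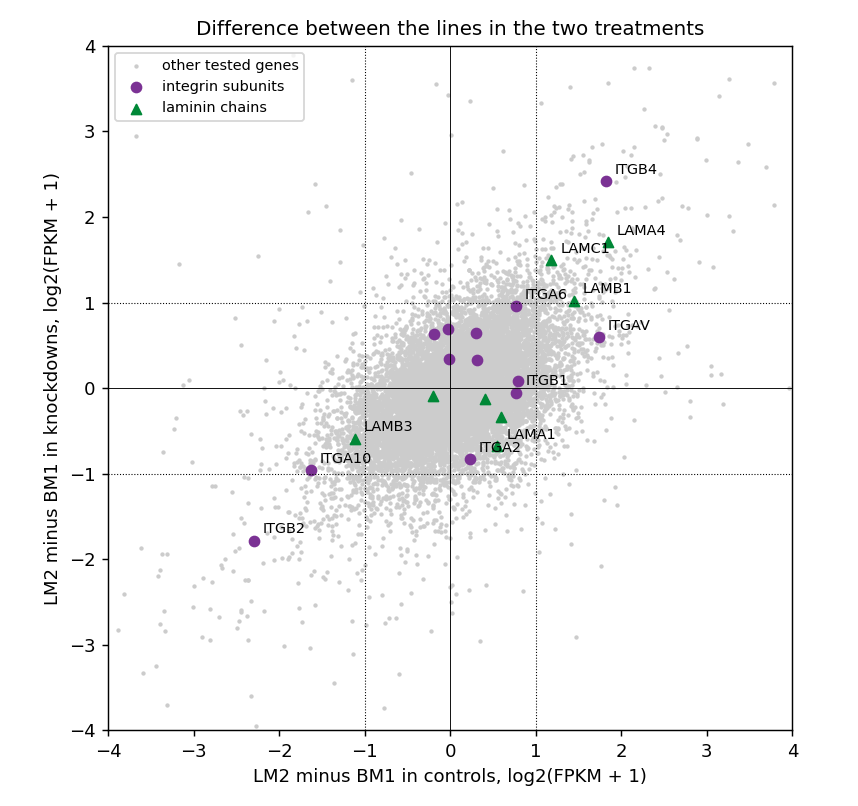
LM2 minus BM1 on the log2(FPKM + 1) scale in controls (horizontal) and knockdowns (vertical), with symbols for integrin subunits, laminin chains and other tested genes and dotted lines at 2-fold. ITGB4, LAMA4, LAMC1 and LAMB1 lie past 2-fold in LM2 in both treatments and ITGB2 past 2-fold lower, and 23 genes fall outside the axes.

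ITGB4 was called higher in LM2. Its LM2 libraries (68.5 and 78.8 FPKM) were 3.66 times BM1 in controls and 5.65 times in knockdowns, a limma difference of 2.12 ± 0.27 (log2, SE, adjusted p 0.00467). It overlaps GALK1 on the opposite strand by 6225 bases. ITGA6, its obligate partner, was 1.72 and 1.99 times BM1 in LM2 and missed the threshold (adjusted p 0.0933, limma). LAMA4, LAMC1 and LAMB1, which together can form a laminin of blood vessel walls, were each higher in both LM2 libraries than in both BM1 libraries. Their limma differences were 1.77 ± 0.25, 1.34 ± 0.26 and 1.23 ± 0.26 (log2, SE), with adjusted p values of 0.00767, 0.0256 and 0.0375. LAMA4 was at 5.01 times BM1 in controls and 5.58 times in knockdowns. LAMB1 overlaps DLD on the opposite strand by 7932 bases, and DLD stood at 30.2, 60.5, 32.5 and 49.0 FPKM.

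ITGB2 ran the other way, with LM2 at 0.181 of BM1 in controls and 0.251 in knockdowns, a limma difference of -2.04 ± 0.27 (log2, SE, adjusted p 0.00513). ITGA10 was lower in both LM2 libraries, at 0.126 and 0.204 of BM1 (-1.29 ± 0.27, adjusted p 0.0382, limma). LAMB3 was at 0.458 of BM1 in controls and 0.660 in knockdowns (adjusted p 0.106). For 8 of 21 members the line difference had opposite signs in the 2 treatments, beside 33.5% of all genes. With size factors ITGB1 was no longer among them, which left 7. LAMA1 is an example: LM2 was 2.17 times BM1 in controls and 0.517 of BM1 in knockdowns. ITGAV kept its direction, at 3.95 times BM1 in controls and 1.54 times in knockdowns. Whether these line differences depend on treatment cannot be tested with 4 libraries.

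Genes around the integrins and laminins were read from lists drawn up from general knowledge. ICAM1, NRROS, TNC and TNS4 are named because limma called them, after their values were seen. Of 85 tested genes on these lists limma called 11 in the knockdown and 12 between lines. Of all 13928 genes tested it called 762 in the knockdown, 2.71% higher and 2.76% lower. Between lines it called 606 of all genes, 2.31% higher and 2.04% lower. The counts per list below stand beside these shares. All 11 and all 12 were lost without the low-value filter, without pairing by line or the term for treatment, and on leaving out any library. With a pseudocount of 0.1 the knockdown calls were all lost as well, and 4 of the 12 line calls were kept, COL4A1, FN1, PTK2B and TSPAN8, with CD37 added. With size factors the knockdown calls of CD82 and ICAM1 were lost. Without the filter limma called 0 of all genes in either contrast, and with a pseudocount of 0.1 it called 27 in the knockdown. Without pairing by line it called 0 of all genes in the knockdown, and without the term for treatment 11 between lines. On leaving out a library nearly all calls over all genes were lost as well. Losses under these settings are not particular to the lists. Of 35 tested linkers between integrins and actin, limma called 1 higher and 2 lower in the knockdown (median -0.25, beside -0.008 for all genes). NEDD9, a scaffold of focal adhesions, rose in BM1 from 3.88 to 11.6 FPKM and in LM2 from 1.30 to 6.57 (adjusted p 0.0172). LPXN, a paxillin relative, fell in BM1 from 23.6 to 8.92 FPKM and in LM2 from 10.2 to 3.29 (adjusted p 0.0233). SRC, the kinase of focal adhesions, fell from 8.24 to 2.33 and from 4.94 to 1.86 FPKM (adjusted p 0.0318). Between lines 1 linker was called higher in LM2 (PTK2B) and 2 lower (LPXN and TNS4).

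Of 17 tested ligands of integrins other than laminins, 3 were called higher and 1 lower in the knockdown (median 0.54). THBS1, a matrix glycoprotein that ITGAV pairs can bind, rose in BM1 from 39.6 to 324 FPKM and in LM2 from 169.6 to 472 (adjusted p 0.0158). EDIL3, a secreted ligand of ITGAV pairs, rose from 17.0 to 82.2 and from 13.3 to 49.2 FPKM (adjusted p 0.00928). ICAM1, the counter-receptor of ITGB2 pairs, was the third gene called higher and NRROS the gene called lower. In LM2 against BM1, 3 ligands were called higher: FN1, TGFBI and TNC. FN1, the ligand of the ITGA5 and ITGB1 pair, was at 24.4 and 38.7 FPKM in BM1, with 200.9 and 250.5 in LM2 (adjusted p 0.000974). TGFBI was at 3.25 and 13.3 FPKM in BM1, with 57.4 and 61.8 in LM2.

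Among 9 tested partners of laminin in basement membranes, 3 were called higher in LM2, COL4A1, COL4A2 and COL18A1, and 0 lower (median 0.53 between lines). COL4A1, a chain of the network that laminin attaches to, was at 4.11 and 5.24 FPKM in BM1, with 15.5 and 27.9 in LM2. COL4A5 was the only partner called in the knockdown, higher, in BM1 from 2.33 to 7.68 FPKM and in LM2 from 4.39 to 10.9 (adjusted p 0.0296, limma). Of 5 tested hemidesmosome genes, limma called 0 in either contrast. Among these DST, the plakin that joins ITGB4 to keratin, was at 13.6 and 64.7 FPKM in BM1, with 38.2 and 56.9 in LM2 (adjusted p 0.0683).

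Of 12 other laminin receptors and their modifying enzymes, SDC1 was the only one called in the knockdown, in BM1 from 46.2 to 10.2 FPKM and in LM2 from 33.6 to 16.4 (adjusted p 0.0296, limma). Between lines BCAM and DAG1 were called lower in LM2. DAG1, the core of dystroglycan, was at 57.4 and 70.7 FPKM in BM1, with 15.5 and 37.3 in LM2. Of 8 tested tetraspanins, membrane proteins that cluster with integrins, TSPAN8 was called higher and CD82 lower in the knockdown. CD82, a metastasis suppressor, fell in BM1 from 47.0 to 6.87 FPKM and in LM2 from 50.8 to 28.9 (adjusted p 0.0453). CD151, the partner of ITGA3 and ITGA6, was at 189.9 and 119.7 FPKM in BM1, with 179.6 and 142 in LM2 (adjusted p 0.267). TSPAN8 was also called lower in LM2, at 0.0793 and 0.924 FPKM against 4.41 and 22.3 in BM1.

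Facts of the libraries bear on these values. Summed FPKM lay between 434567 and 455114, and mitochondrial genes took 8.80% and 9.31% of it in the controls against 11.8% and 12.8% in the knockdowns, whose part in the results was not tested. The mesenchymal markers VIM, CD44 and AXL were at 155 to 2354 FPKM, while EPCAM was at 3.0 to 4.59 and CDH1 at 0.170 to 4.08. The keratins of simple epithelia were higher, with KRT8 at 398 to 1181 FPKM, KRT18 at 129 to 319 and KRT19 at 20.1 to 225. ERBB2 was at 13.5 to 21.9 FPKM, and of the markers of endothelium VWF, KDR and TEK had a value, with KDR reaching 1.5. Among fibroblast markers COL1A1 was called higher in the knockdown and in LM2 (1.94, 11.1, 29.2 and 74.2 FPKM in the order BM1 control, BM1 knockdown, LM2 control, LM2 knockdown; limma adjusted p 0.017 and 0.00109), while LUM and PDGFRA did not exceed 1.61. Among epithelial markers CDH1 and KRT8 were called higher in the knockdown and KRT19 lower in LM2 (limma adjusted p 0.0144, 0.0253 and 0.00278). The part of these shifts in the integrin and laminin values was not tested. Since a library holds RNA from a whole culture, fewer cells with a transcript and less of it per cell cannot be told apart.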

How the data were processed

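Per the labels' protocols, Trizol was used to isolate RNA, and polyA selection preceded stranded, paired-end TruSeq libraries. The authors deposited 1 table of FPKM values with 1 column per library. STAR 2.5.3a, Cuffdiff 2.2.1 and GRCh37 are named in the submitters' processing notes without a role. No source used here names the annotation release; gene positions come from the table. From 20369 rows, 40 with repeated gene IDs were left out.

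Low values lay on multiples of a step within 0.02 of a whole number for only 36.6% to 44.9% of 1623 single-transcript genes, so counts were not modelled. Taken as 1 fragment, that step makes 1 FPKM on a transcript of 5 kb worth 114 to 207 fragments. A finer step, which caught 49.8% to 58.5% of the genes, makes it worth 273 to 456, so the depth is uncertain.

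Genes with a mean of at least 1 FPKM (13928) were analysed as log2(FPKM + 1) in Python 3.11.15. The test was limma 3.58.1 in R 4.3.3 with terms for line and treatment, no trend, Benjamini-Hochberg adjustment over all genes and a threshold of 0.05. With 1 library per group, the spread of a gene in the fit is how far its change differs between the lines. limma draws that spread towards a value shared by all genes, so p-values measure no spread between replicate cultures. The fit was tested on simulated data, where the share of false calls exceeded the threshold in most trials. Its mean was 9.87% in the knockdown contrast. The line pairs a knockdown with its control, since both come from 1 line: line differences in controls and knockdowns had a Pearson r of 0.545 across genes, which are not replicates. Comparisons of 2 libraries have no test and used a 2-fold rule. The members and lists were chosen with earlier results of these data known. Some genes are not reported here: they stayed in the fit and were left out of the counts of members and lists. Members past 2-fold in any comparison or called by limma were given in every library, and up to 4 genes per list were taken by size of average difference, besides genes called by limma or used as background markers. Promoter sequences come from RefSeq (GRCh38.p14).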

Additional observations from a re-analysis of the deposited data

Results flagged for a closer look

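The knockdown difference had opposite signs in the lines, at 0.58 or more in size on the log2(FPKM + 1) scale, in 2 genes of the lists and in 0 members. BCAM, a laminin receptor of the immunoglobulin family, was 0.64 higher in the BM1 knockdown and -0.85 in the LM2 knockdown. LTBP1, which stores latent TGF-beta in the matrix, differed by 1.26 in BM1 and -0.68 in LM2. The difference between lines was not tested, because 4 libraries leave no degrees of freedom for it.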

How the results depend on the processing

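Alternatives changed the number of members past the 2-fold rule as follows. With a pseudocount of 0.1 the BM1 knockdown comparison gave 7 members (4 as reported), and with a 1.5-fold rule 10. The 1.5-fold rule gave 7 in the LM2 knockdown comparison (2 as reported) and 14 (5 as reported) between knockdown libraries. The other alternatives stayed within 1.5 times. The limma count of 1 member in the knockdown contrast was 0 with a pseudocount of 0.1, 0 without the filter, 3 with an intensity trend (ITGB1 and LAMB3 added) and 0 without pairing by line (no replicate block), and leaving out any of the 4 libraries gave 0 to 0. At an unadjusted p under 0.05 these fits with 0 calls gave 6, 7, 2 and 0 to 4 members, beside 21.8%, 18.4%, 11.1% and 6.17% to 13.95% of all genes. The count of 6 members between lines was 0 without the filter, 0 without the term for treatment and 0 to 0 on leaving out any library, with 10, 6 and 5 to 10 members at an unadjusted p under 0.05, beside 17.9%, 9.57% and 4.98% to 14.9% of all genes. With 3 libraries the second term had to be left out and the lone library of an arm was assumed to vary like the others. Of 234 single-gene values under alternatives, 180 kept their side of the threshold, 46 lost it and 8 gained it, and 1 changed sign: the line difference of ITGB1 in knockdowns, from -0.053 to 0.0085 with size factors. No count of fragments was available, so counting error was not modelled.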
